A study of Mus musculus with 8 samples.

Results

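The SR proteins, the Clk kinases that phosphorylate them, 5 SR-related proteins of nuclear speckles and the hnRNPs were described in CD4+ T cells from inflamed mouse knees. Members were 42 gene symbols of the 24421 in the count file, chosen by name: 13 SR proteins, 4 Clk kinases, 5 SR-related proteins (Bclaf1, Thrap3, Son, Srrm1 and Srrm2) and 20 hnRNPs. The set was proposed after Bclaf1 and Clk1 had been seen among the genes with the smallest p in the same contrast, so the differences between genotypes given for its members are a description and carry no test. The cells came from the knees of 16 weeks old male mice with antigen-induced arthritis, taken apart with enzymes and sorted for CD4. Of the 8 libraries, 4 were labelled wild type and 4 Slc7a5 knockout. All 8 libraries share the arthritis, the digestion and the sort, and an unaffected joint was not analysed here. The labels name neither the promoter or recombinase behind the knockout nor the cells that carry it, and they do not say that each library is its own animal.

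SR proteins bind exonic enhancers through an RNA recognition motif and recruit the spliceosome through a tail rich in arginine and serine. Clk kinases phosphorylate that tail and release SR proteins from nuclear speckles, while many hnRNPs bind silencer elements and oppose exon inclusion. Many of these genes control their own level by splicing in a "poison" exon with an early stop codon, or by keeping an intron, so that part of their RNA is degraded or stays in the nucleus. In T cells, members of both families set which isoforms of Cd44 and of Ptprc (CD45) are made, and Hnrnpll is known for its part in switching CD45 isoforms on activation. Counts per gene symbol add all transcripts of a gene together, so they do not show which isoform was present.

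Library totals ran from 18837650 to 36436923 counts, and 8489 genes passed the filter on low counts. Knockout replicate 4 stood apart: its Spearman correlations with the other libraries were 0.489 to 0.544, and 43.7% of the tested genes were at 0 in it, against 2.86% to 19.3% in the other 7. Slc7a5, the targeted amino acid transporter, was counted 385, 194, 410 and 0 times in the wild-type libraries and 0 times in every knockout library. The wild-type replicate 4 library and the deleted part of the gene are therefore not checked by it. The summed level of 10 T cell markers was 9100 to 12154 CPM (counts scaled to library size with TMM factors) in wild type and 7425 to 9419 in knockout. Cd4, the gene of the sort, was at 570.3, 372, 388 and 501 CPM in wild type. In knockout it was at 427, 344, 402 and 1.78 CPM, low in replicate 4. Cd5 was also low there, at 43.46 CPM against 171.8 to 338.5 in the other knockout libraries. Cd3e was at 554, 439.6, 407 and 507 CPM in wild type and 381, 330.2, 367 and 382 CPM in knockout. The T cell markers differed in direction. Cd3e, Cd247, Lat and Cd5 were lower in every knockout library than in every wild-type one. Cd28 was at 556.5 to 675.9 CPM in wild type and 577.9 to 1165 CPM in knockout. Of the markers of monocytes, macrophages and dendritic cells, 3 of 13 (Adgre1, Fcgr1 and Mrc1) were at 0 in all libraries, and the list's sum was 1229 to 3027 CPM in wild type and 1948 to 10891 in knockout. Nearly all of that sum came from Cd74 and 3 MHC class II genes (1152 to 2930 against 1840 to 10832 CPM). The 9 other genes of the list summed to 65.06 to 110 CPM in wild type and 54.45 to 108.5 in knockout, and single genes differed in direction. Itgax and Itgam were at 0 in every knockout library and in wild-type replicates 3 and 4. Lyz2 and Cd14 were at 0 in knockout replicates 1 and 2. Csf1r was at 0 in every wild-type library and at 0, 44.29, 21.91 and 0.05223 CPM in knockout. Cd68 was at 19.83 to 47.9 CPM in wild type and 10.17 to 58.5 CPM in knockout. Sums of B cell, CD8 T and natural killer, neutrophil and synovial fibroblast markers did not exceed 157 CPM in any library. The highest, that of fibroblast markers in wild-type replicate 1, was mostly Thy1 at 143.4 CPM, and Col1a2 and Pdgfra were at 0 in all libraries. Cd8b1, a CD8 T cell marker, was at 123 CPM in knockout replicate 4 and at 0 to 20.3 CPM in the other 7 libraries. All other genes of the CD8 T and natural killer list, Cd8a among them, were at 0 in knockout replicate 4. Bulk counts cannot tell fewer cells of a type from less RNA per cell.

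Of the 42 members, 41 passed the filter. Srsf12, an SR protein, had 0 counts in all 8 libraries. Members were abundant beside most genes: their median level over the 8 libraries was 190.3 CPM against 37.15 CPM for all tested genes. The median coefficient of variation among the wild-type libraries was 32.6% for members and 53.3% for all tested genes. Among the knockout libraries, that of single members ran from 8.38% (Srsf11) to 176% (Hnrnpul2). At least 1 library was at 0 for 7 of the 41 tested members, and the same held for 55.4% of all tested genes. Neither spread nor zeros were compared with genes of like level. Knockout replicate 4 held the highest value for 15 of the 41 members and the lowest for 11, against 18.3% and 32.2% of all tested genes.

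The estimates leaned towards the knockout: 29 of 41 members had a higher estimate there and 12 a lower one, where 45.0% of all tested genes had a higher and 55.0% a lower estimate. The counts were 29 and 12 without knockout replicate 4, 25 and 16 without knockout replicate 2, 26 and 15 with an offset for GC content and 23 and 18 with the replicate number as a block. In the same settings, 46.5%, 41.1%, 45.7% and 31.1% of all tested genes had a higher estimate. By the quasi-likelihood test of edgeR, adjusted after Benjamini and Hochberg, 0 of 8489 genes (0%) passed at an adjusted p under 0.05, so 0 members did, and the smallest adjusted p of any gene was 0.437. At an unadjusted p under 0.05, which 3.84% of all tested genes had, 5 members were on the higher side (Srsf2, Tra2b, Clk1, Bclaf1 and Hnrnpdl), where 1.87% of all tested genes were. No member was on the lower side, where 1.97% of all genes were. For 4 members (Bclaf1, Clk1, Tra2b and Hnrnpdl) every knockout library lay above every wild-type library, a pattern seen in 1.52% of all tested genes. The opposite pattern held for 0 members and 4.62% of all genes. DESeq2 called 101 of the 8238 genes to which it gave an adjusted p (1.23%), with 3 members among them, Bclaf1, Clk1 and Srsf2, all higher in knockout (0.291% of genes, and 0.935% lower). Voom with quality weights in limma called 4 genes (0.0471%) and 0 members. Nothing is read from these shares, since the same contrast helped to choose the members.

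**Figure D1:**
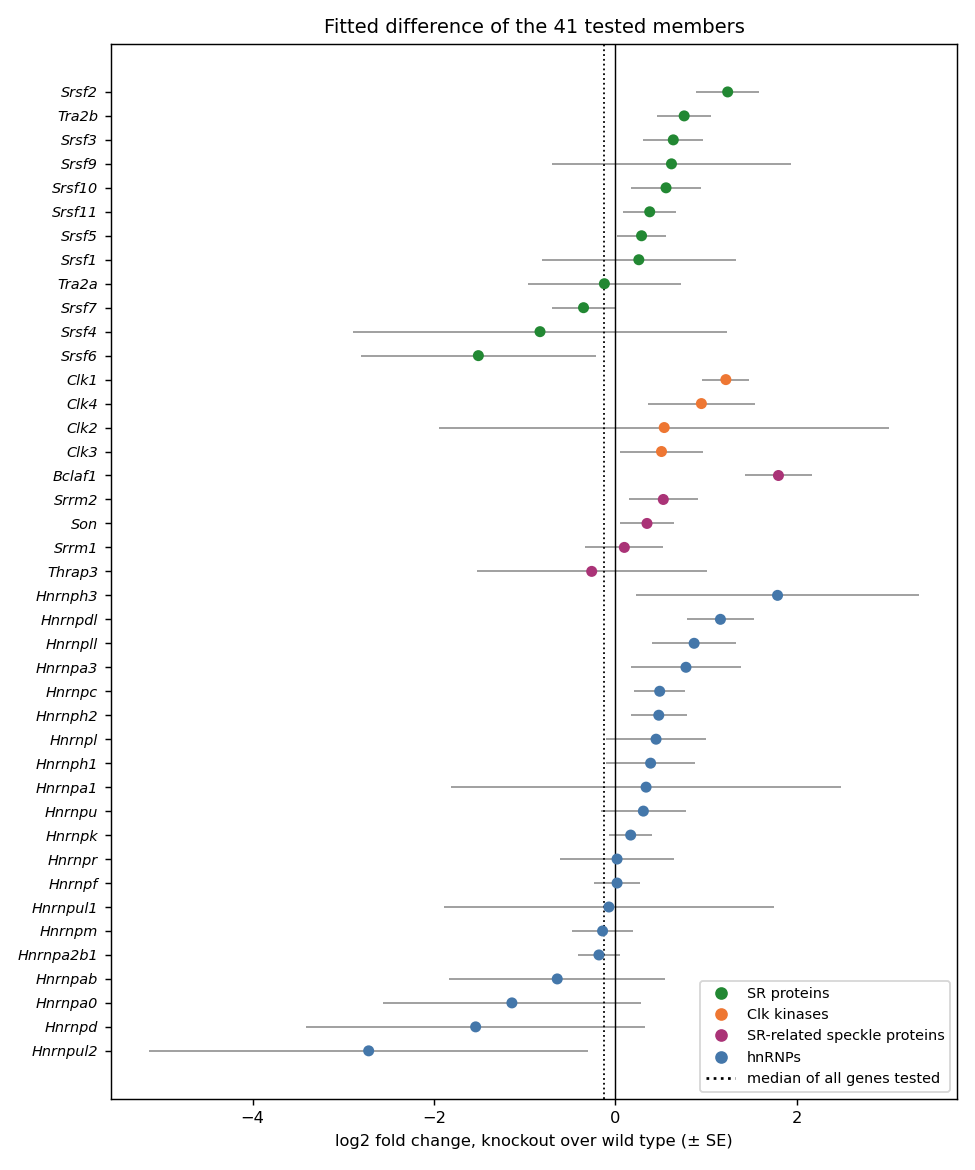
Log2 fold change of knockout over wild type (x axis) with its standard error for the 41 tested members (y axis), coloured by family, with the median of all tested genes as a dotted line at −0.12. The 4 Clk kinases lie to the right of 0. Of the members with long error bars, Clk2 and Hnrnpul2 have few counts. Hnrnpd, also with a long bar, had 1096 to 3249 counts in wild type and 776, 1, 1390 and 0 in knockout.

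Bclaf1, a speckle protein with an arginine and serine rich stretch that takes part in mRNA processing, had the highest estimate of all members. Its gene lies at chr10:20310512-20342644 (GRCm38, the build of the files). Wild-type replicates 1 to 4 were at 77.8, 178, 171 and 75.1 CPM, and the knockout replicates, in the same order here and for every gene below, at 495, 467, 332 and 453 CPM. The lowest knockout value was above the highest wild-type value, and wild-type replicates 1 and 4 were the low ones of their group. The log2 fold change was 1.80 ± 0.37 (estimate ± SE, n = 4 each, used for all fold changes here). It was 1.62 to 1.99 when 1 library at a time was left out.

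**Figure D2:**
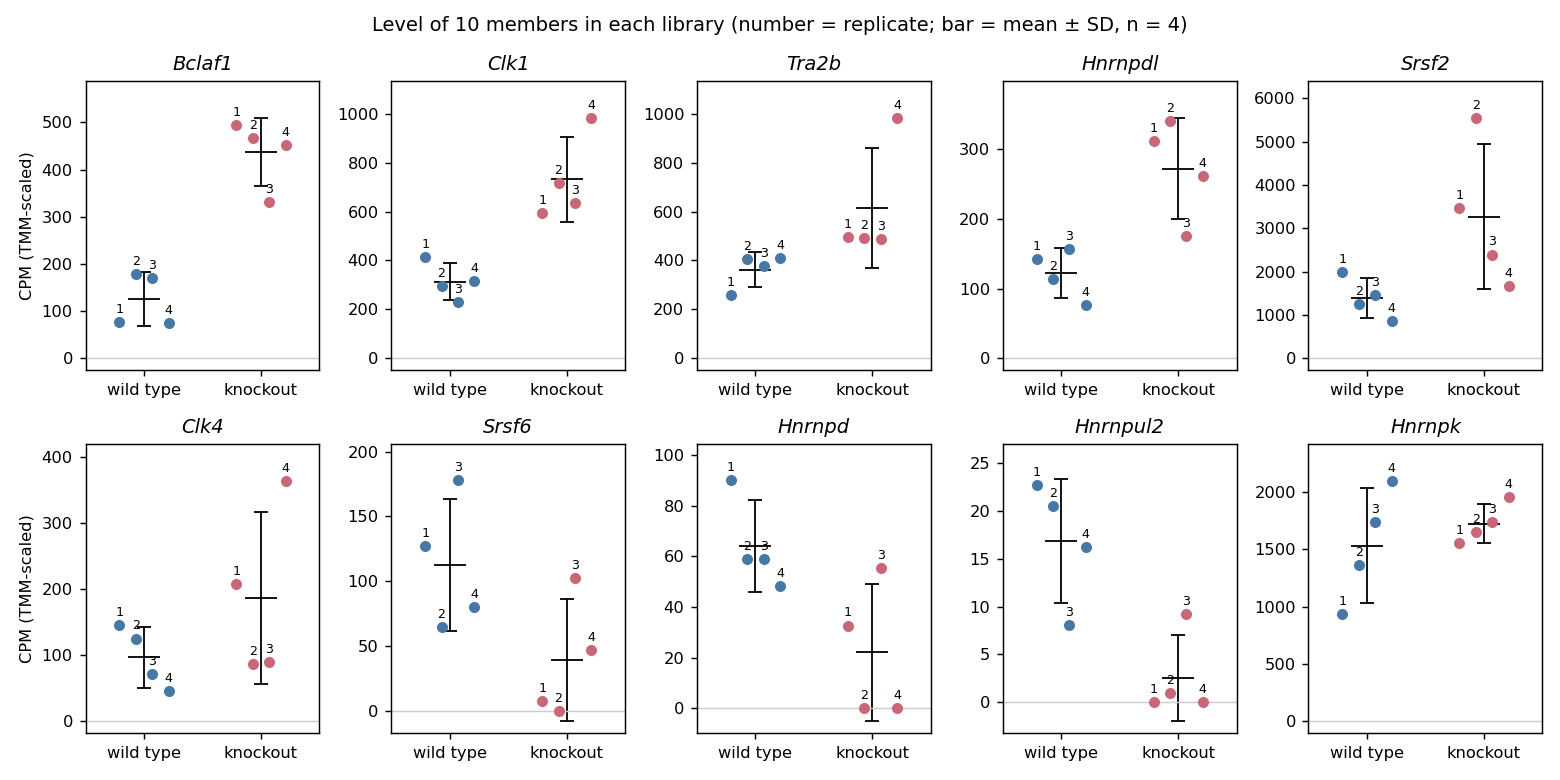
CPM (y axis) of 10 members in each library (points, numbered by replicate) by genotype, with mean ± SD (n = 4 each). Bclaf1, Clk1, Tra2b and Hnrnpdl separate the genotypes, Hnrnpk overlaps fully, and Srsf6, Hnrnpd and Hnrnpul2 have knockout libraries at or near 0.

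Thrap3, the close relative of Bclaf1 that works with it in mRNA export and splicing, overlapped between the genotypes. Its CPM was 88.8, 95.3, 102 and 156 in wild type and 142, 93.5, 134 and 0 in knockout, with 0 counts in knockout replicate 4. The log2 fold change was −0.26 ± 1.27, and 0.15 without knockout replicate 4. Son, the scaffold of speckles that helps to splice weak introns, was at 387, 365, 401 and 293 CPM in the wild-type and at 338, 316, 465 and 725 CPM in the knockout libraries. Only knockout replicates 3 and 4 exceeded all wild-type libraries, and the log2 fold change of 0.35 ± 0.30 became 0.03 without replicate 4.

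Srrm2, a large spliceosome protein and core part of speckles, was at 232, 126, 209 and 129 CPM in the wild-type and at 214, 160.3, 249.8 and 379 CPM in the knockout libraries, where replicates 1 and 2 lay within the wild-type range (log2 fold change 0.53 ± 0.38). Srrm1, its partner in bridging SR proteins and snRNPs, was at 398, 471, 382 and 265 CPM in the wild-type and at 528, 578, 418 and 104 CPM in the knockout libraries. Knockout replicate 4 was the lowest of all libraries for Srrm1 and replicate 2 the highest, and the log2 fold change was 0.10 ± 0.43. Summed over the 5 SR-related genes, the level was 1150 ± 158.4 CPM in the wild-type and 1648 ± 53.31 CPM in the knockout libraries (SD, n = 4 each), with all 4 knockout libraries above the wild-type ones. Without Bclaf1 the sums were 843.1 to 1106 CPM and 1148 to 1268 CPM, again without overlap.

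The Clk kinases all had higher estimates, with a median log2 fold change of 0.75 over the 4 genes against −0.12 for all tested genes. Without knockout replicate 4 that median was 0.22. Clk1, at chr1:58411988-58424088, was the most abundant. It was at 413, 296, 230 and 314 CPM in the wild-type and at 594, 716, 637 and 982 CPM in the knockout libraries, so that every knockout library exceeded every wild-type one. Its log2 fold change was 1.22 ± 0.26 and became 1.04 without knockout replicate 4, its highest library.

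Clk4, the closest relative of Clk1, was at 145, 125, 70.6 and 44.6 CPM in the wild-type and at 207, 86.6, 89.8 and 364 CPM in the knockout libraries. Knockout replicates 2 and 3 lay within the wild-type range, and the log2 fold change of 0.95 ± 0.59 became 0.39 without replicate 4. Clk3 was at 113, 146, 123 and 113 CPM in the wild-type and at 126, 168, 86.8 and 323 CPM in the knockout libraries, where replicate 4 was high and replicate 3 was the lowest of all libraries. Its log2 fold change of 0.51 ± 0.46 became 0.02 without replicate 4.

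Clk2, the fourth kinase, was nearly absent from the counts: it was at 12.2, 0, 3.05 and 1.06 CPM in the wild-type and at 0.0421, 12.8, 0 and 10.97 CPM in the knockout libraries. High and zero values occurred in both genotypes, so its log2 fold change of 0.54 ± 2.48 carries no direction. The summed level of the 4 kinases was 683.8, 567.1, 426.6 and 472.2 CPM in the wild-type and 926.7, 983.2, 813.3 and 1680 CPM in the knockout libraries, with no overlap. That separation rests on Clk1: the other 3 kinases summed to 270.6, 271.1, 196.7 and 158.3 CPM and to 332.7, 267.7, 176.6 and 698.4 CPM, which overlap. Clk1 and Clk4 share no stretch of 50 bases with each other or with any other annotated gene, so their reads could be assigned apart. For Clk3, 15.2% of the exon bases overlap exons of Edc3 on the opposite strand. Of its 50-base windows, 19% also occur in other annotated genes.

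Among the 12 tested SR proteins, 8 had higher and 4 lower estimates, with a median log2 fold change of 0.34. Srsf2 (SC35), an SR protein that also acts in transcription elongation, had the highest estimate among them and the highest level per length of all members. It was at 1993, 1246, 1452 and 867 CPM in the wild-type and at 3468, 5543, 2395 and 1678 CPM in the knockout libraries, where replicates 1 to 3 exceeded all wild-type libraries and replicate 4 did not. The log2 fold change was 1.24 ± 0.35, and 0.83 without knockout replicate 2, its highest library. Part of this count is uncertain: 25.3% of its annotated exon bases overlap exons of Mettl23 and Mfsd11 on the opposite strand, and no source used here gives the strand setting of the counting.

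Tra2b, an SR-like activator of exons with GAA-rich enhancers, was at 258, 407, 376 and 409 CPM in the wild-type and at 497, 493, 486 and 982 CPM in the knockout libraries. All knockout libraries lay above the wild-type range. Replicates 1 to 3 lay close together and replicate 4 far above them, and the log2 fold change of 0.76 ± 0.30 became 0.43 without replicate 4. Of the 50-base windows of Tra2b, 18.3% also occur in other annotated genes. Its paralog Tra2a ranged from 47.9 to 78.8 CPM in wild type and from 40.4 to 120 CPM in knockout (log2 fold change −0.12 ± 0.84).

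Srsf3, the smallest SR protein and a factor in mRNA export, was at 215, 163, 158 and 243 CPM in the wild-type and at 342, 272, 194 and 401 CPM in the knockout libraries. Knockout replicate 3 lay within the wild-type range and the other 3 above it (log2 fold change 0.64 ± 0.33). Srsf7, its nearest relative, had a lower estimate, at 239.6, 209, 238 and 377 CPM in the wild-type and at 307, 218, 161 and 147 CPM in the knockout libraries. Only knockout replicates 3 and 4 were below all wild-type libraries, and the log2 fold change was −0.35 ± 0.35.

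Srsf5, an SR protein that is induced on growth stimulation in several cell types, was at 355, 276, 363 and 424 CPM in the wild-type and at 398, 404, 324 and 609 CPM in the knockout libraries. Only knockout replicate 4 exceeded the wild-type range (log2 fold change 0.29 ± 0.27). Srsf11, a member with an arginine and serine rich tail found in the spliceosome, was at 551, 322, 289 and 241 CPM in the wild-type and at 411, 478, 441 and 497 CPM in the knockout libraries. Wild-type replicate 1 was the highest of all 8 libraries, so the groups overlap (log2 fold change 0.38 ± 0.29).

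The lowest SR estimates belonged to Srsf6 and Srsf4, paralogs with a pair of RNA recognition motifs. Srsf6 was at 127, 65.1, 178 and 80.1 CPM in the wild-type and at 8.13, 0.111, 103 and 47.3 CPM in the knockout libraries. Knockout replicates 1, 2 and 4 were below all wild-type libraries and replicate 3 within them (log2 fold change −1.51 ± 1.30, and −2.60 without replicate 3). Srsf4 was scarce, at 8.48, 12.7, 11.1 and 3.18 CPM in the wild-type and at 5.98, 11.4, 2.51 and 0 CPM in the knockout libraries (log2 fold change −0.83 ± 2.06), and 43% of its exon bases overlap an annotated gene on the opposite strand. The remaining SR proteins overlapped between genotypes: Srsf1 had a log2 fold change of 0.26 ± 1.07, Srsf9 of 0.62 ± 1.32 and Srsf10 of 0.56 ± 0.39.

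Most of these genes have transcripts annotated as targets of nonsense-mediated decay (NMD), the pathway that removes RNA with an early stop codon. In GENCODE M21, 15 of the 17 SR and Clk genes (88.2%), all 5 SR-related genes and 10 of the 20 hnRNP genes (50%) have such a transcript, against 32% of the tested coding genes. A transcript with a retained intron is annotated for 14 of the 17 SR and Clk genes (82.4%), 14 of the 20 hnRNP genes (70%) and 64.7% of tested coding genes. Members have more annotated transcripts than other genes, with a median of 9.5 against 6 for tested coding genes, and no adjustment for this was made. For 13 members, an exon of an NMD transcript that touches no exon of a coding transcript holds the stop codon. Transcripts of other types were not compared.

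The coding stretch of such exons, from their first base to the stop codon in capitals, is shown for Bclaf1, for Tra2b, which separated the genotypes, and for the related pair Srsf3 and Srsf7, whose estimates had opposite signs. Each is read 5′ to 3′ on the strand of the gene, from GRCm38.
Bclaf1 (chr10:20327164-20327240, plus strand): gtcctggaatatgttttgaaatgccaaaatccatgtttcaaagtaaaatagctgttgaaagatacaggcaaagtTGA
Bclaf1, further downstream (chr10:20332396-20332435, plus strand): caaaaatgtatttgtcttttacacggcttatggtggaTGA
Tra2b (chr16:22259181-22259261, minus strand): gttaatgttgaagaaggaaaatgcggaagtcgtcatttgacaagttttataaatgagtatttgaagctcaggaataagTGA
Srsf3 (chr17:29039454-29039487, plus strand): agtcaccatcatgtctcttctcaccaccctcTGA
Srsf7 (chr17:80205054-80205081, minus strand): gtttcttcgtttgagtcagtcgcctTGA
The stop codon is TGA in all 5 stretches. Whether these exons were in the annotation used for counting is not known from the sources used here. Bclaf1, Tra2b and Srsf3 have further exons in NMD transcripts that touch no exon of a coding transcript. All remaining exons of the NMD transcripts overlap an exon of a coding one. A count of Bclaf1 or Tra2b therefore does not separate RNA that can be translated from RNA marked for decay.

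Among the 20 hnRNPs, 13 had higher and 7 lower estimates, with a median log2 fold change of 0.24. Hnrnpdl, a relative of Hnrnpd that binds AU-rich RNA, was the one hnRNP without overlap. It lies at chr5:100033577-100039936 and was at 143, 113, 157 and 76.0 CPM in the wild-type and at 312, 340.2, 175 and 262 CPM in the knockout libraries. Knockout replicate 3 was the closest to wild type, and the log2 fold change was 1.16 ± 0.37.

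Hnrnpd (AUF1), which speeds the decay of many cytokine mRNAs, had an estimate of the opposite sign. It was at 90.3, 59.1, 58.8 and 48.4 CPM in the wild-type and at 32.7, 0.0556, 55.4 and 0 CPM in the knockout libraries. Knockout replicate 3 lay within the wild-type range, while replicate 2 had almost no counts and replicate 4 none (log2 fold change −1.54 ± 1.87, and −2.55 without replicate 3). Hnrnpd (chr5:99955935-99979130) and Hnrnpdl lie close together on the same chromosome, and their estimates had opposite signs.

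Hnrnpll, the factor known for CD45 isoform switching, was at 170.2, 146, 176 and 48.0 CPM in the wild-type and at 161, 201, 257 and 364 CPM in the knockout libraries. Wild-type replicate 4 was low, knockout replicate 1 lay within the wild-type range and the other 3 exceeded it (log2 fold change 0.87 ± 0.46). Hnrnph3, a smaller relative of Hnrnph1, was scarce, at 6.14, 7.26, 15.4 and 5.74 CPM in the wild-type and at 35.6, 27.8, 12.4 and 43.6 CPM in the knockout libraries. Knockout replicates 1, 2 and 4 were above the wild-type libraries, and the log2 fold change was 1.79 ± 1.56.

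The 4 most abundant hnRNPs had estimates from −0.18 to 0.31. Hnrnpk, a poly(C)-binding protein of transcription and translation, was at 930.4, 1367, 1736 and 2098 CPM in the wild-type and at 1555, 1651, 1739 and 1954 CPM in the knockout libraries, all within the wild-type range (log2 fold change 0.17 ± 0.24). Hnrnpf, which binds G-rich runs, was at 752, 932, 952 and 1097 CPM in the wild-type and at 571, 1325, 921 and 963 CPM in the knockout libraries. Knockout replicates held both the lowest and the highest value of Hnrnpf, and its log2 fold change was 0.02 ± 0.25.

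Hnrnpa2b1, a core hnRNP that reads methylated adenosine, was at 572, 600, 742 and 870 CPM in the wild-type and at 641, 651, 439.8 and 727 CPM in the knockout libraries. Only knockout replicate 3 was outside the wild-type range, below it (log2 fold change −0.18 ± 0.23). Hnrnpu, a nuclear scaffold protein that binds both DNA and RNA, was at 645, 711, 702 and 467 CPM in the wild-type and at 837, 1213, 932 and 145 CPM in the knockout libraries. Knockout replicates 1 to 3 were above the wild-type range and replicate 4 far below it, and the log2 fold change of 0.31 ± 0.47 became 0.64 without replicate 4.

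Hnrnpul2, with few counts, and Hnrnpa0 had low estimates. Hnrnpul2, a relative of Hnrnpu, was at 22.6, 20.4, 8.03 and 16.2 CPM in the wild-type and at 0, 0.945, 9.24 and 0 CPM in the knockout libraries (log2 fold change −2.72 ± 2.42, and −5.72 without knockout replicate 3). Hnrnpa0, an intronless hnRNP that binds AU-rich mRNA, was at 59.7, 31.4, 21.9 and 89.7 CPM in the wild-type and at 17.7, 7.61, 65.2 and 1.67 CPM in the knockout libraries (log2 fold change −1.14 ± 1.42, and −2.49 without knockout replicate 3 or −0.71 without wild-type replicate 4). In both genes 1 knockout library lay within the wild-type range and the other 3 below it.

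The 10 other hnRNPs had log2 fold changes from −0.64 ± 1.19 (Hnrnpab) to 0.78 ± 0.61 (Hnrnpa3), and their groups overlapped. Hnrnpc, the uridine-binding core hnRNP, had the smallest standard error of these (log2 fold change 0.49 ± 0.28). Counts of Hnrnpa1, among the best known hnRNPs, were at most 11.3 CPM in any library. Of its 50-base windows, 46.4% also occur in other annotated genes (19 in all), and no source used here says how reads that match several places were counted.

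**Figure D3:**
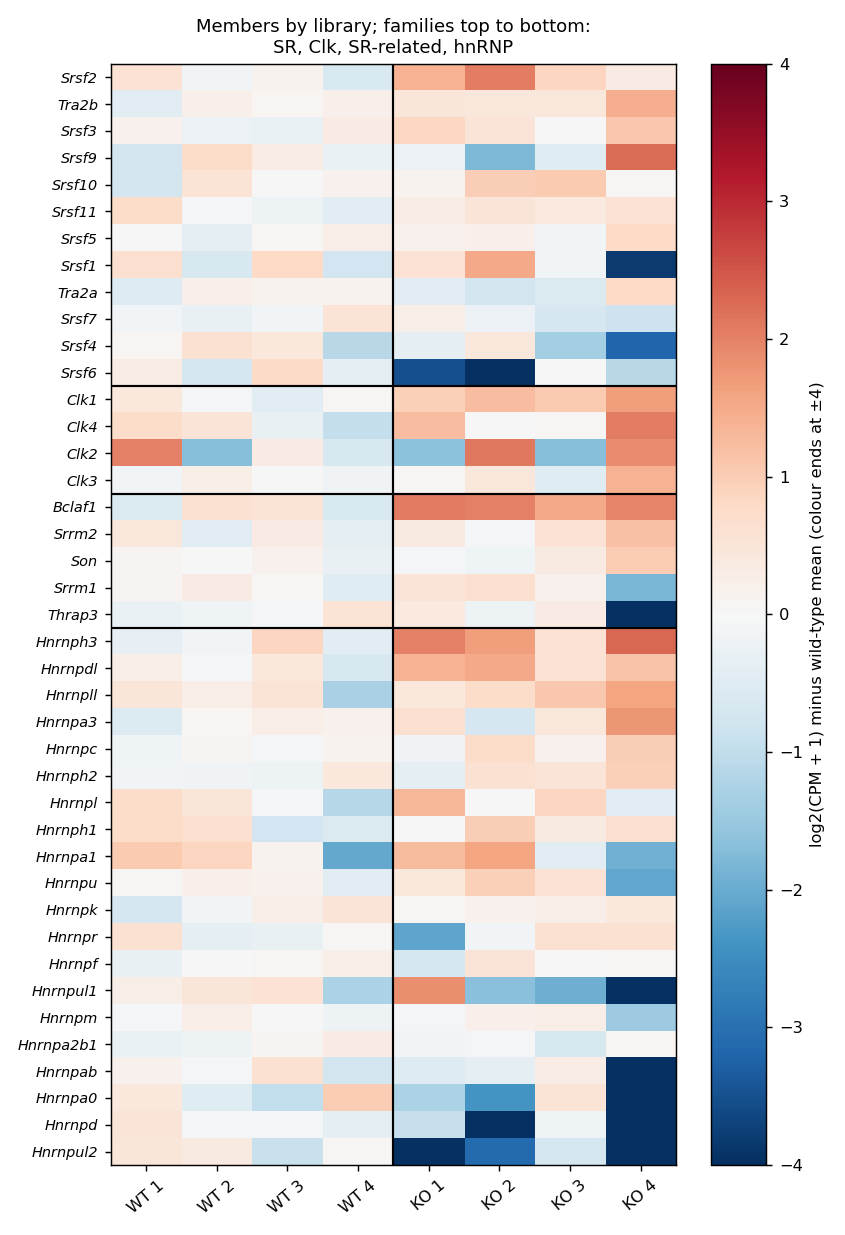
log2(CPM + 1) minus its wild-type mean (colour, ending at ±4) for the 41 tested members (y axis, by family) in the 8 libraries (x axis). Bclaf1 and Clk1 are red in all 4 knockout libraries, while knockout replicate 4 holds several of the deepest blue and several of the deepest red cells. Srsf6 and Hnrnpd reach the blue end of the scale in knockout replicate 2 as well.

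Between genes, levels were compared as CPM per kilobase of the longest annotated coding transcript. Srsf2 stood highest in wild type at 732 ± 247 CPM per kb, followed by Hnrnpk at 516 ± 168, Hnrnpa2b1 at 403 ± 79.8 and Hnrnpf at 389 ± 58.8 (SD, n = 4). Neighbours in this order differed by less than the larger of their SDs. Srsf5 at 226 ± 38.9 and Clk1 at 174 ± 42.2 CPM per kb came next in wild type, each below its neighbour by more than either SD. In knockout the level of Srsf2 was 1723 ± 886 CPM per kb and that of Clk1 408 ± 96.9, the latter at the height of Hnrnpf (394 ± 128) and Hnrnpa2b1 (356 ± 71). Shared sequence limits this order: 67.3% of the 50-base windows of Hnrnpf, 37.8% of those of Hnrnpk, 35.2% of those of Srsf2 and 27.8% of those of Srsf5 also occur in other annotated genes.

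The SR and Clk genes were then set against the hnRNPs within each library. The 17 SR and Clk genes summed to 4689, 3691, 3877 and 3448 CPM in the wild-type and to 6717, 8968, 5404 and 6483 CPM in the knockout libraries. The genotypes did not overlap, and the means were 3926 ± 538.2 and 6893 ± 1497 CPM (SD, n = 4 each). The 20 hnRNPs summed to 5230, 5902, 6257 and 6450 CPM in the wild-type and to 5916, 7616, 6802 and 6590 CPM in the knockout libraries. Here the means were 5960 ± 537 and 6731 ± 700.5 CPM, and knockout replicate 1 lay within the wild-type range.

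The ratio of the SR and Clk sum to the hnRNP sum was 0.897, 0.625, 0.62 and 0.534 in wild type and 1.14, 1.18, 0.794 and 0.984 in knockout. Knockout replicate 3 was below wild-type replicate 1, so the groups overlapped (0.669 ± 0.157 against 1.02 ± 0.173). Srsf2 alone made up 25.1% to 42.5% of the SR and Clk sum in wild type and 25.9% to 61.8% in knockout. Without Srsf2, a choice made after the data were seen, the ratio was 0.516, 0.414, 0.388 and 0.400 in wild type and 0.549, 0.450, 0.442 and 0.729 in knockout. Only 2 knockout libraries then exceeded all wild-type ones, and the means were 0.429 ± 0.0585 and 0.543 ± 0.134. The SR and Clk sum without Srsf2 still showed no overlap (2537 ± 126.9 against 3622 ± 806.8 CPM).

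Taken per gene rather than by sum, the median log2 fold change was 0.53 for the 16 tested SR and Clk genes and 0.24 for the 20 hnRNPs. Without knockout replicate 4 these medians were 0.19 and 0.24. Within each library, the median log2 CPM of the SR and Clk genes minus that of the hnRNPs was −0.32, 0.10, 0.41 and 0.79 in wild type and 0.51, 0.35, −0.46 and 0.52 in knockout. Its means, 0.25 ± 0.47 and 0.23 ± 0.47 (SD, n = 4 each), differed by far less than the spread between libraries.

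**Figure D4:**
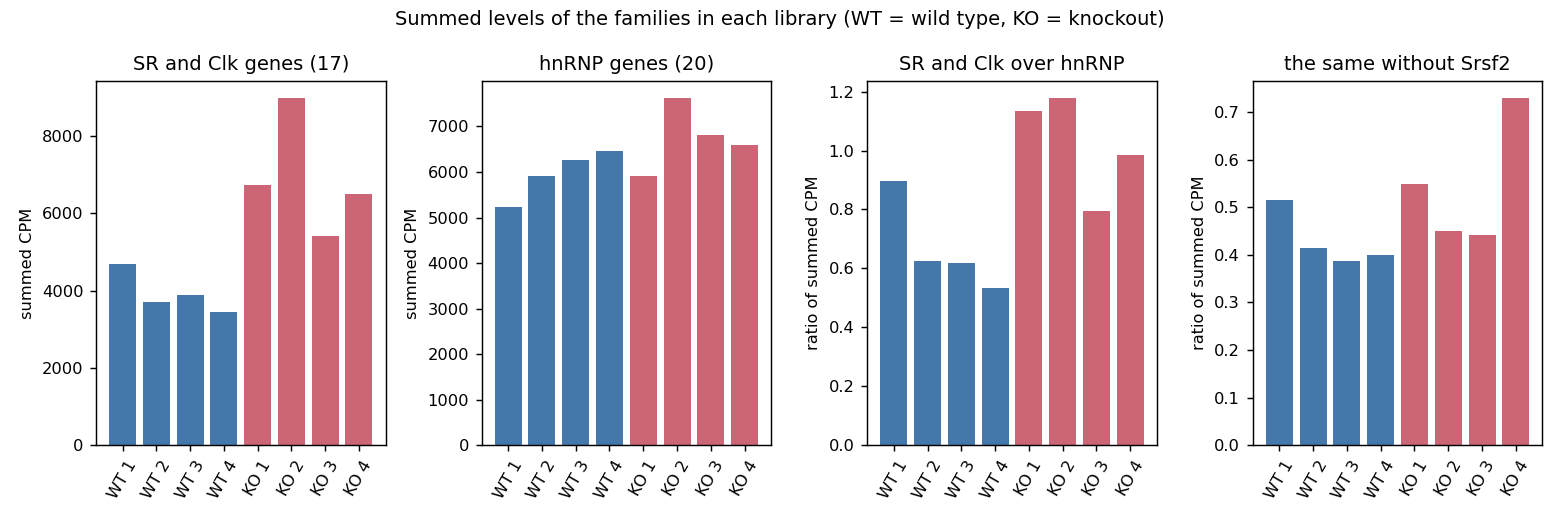
Summed CPM of the SR and Clk genes and of the hnRNPs, and the ratio of these sums with and without Srsf2 (y axes), in each library (bars; no error bar, since each bar is 1 library). The knockout bars of the SR and Clk sum, 5404 CPM or more, all exceed the wild-type ones, which reach 4689 CPM, while the ratios overlap.

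Several other measures differed between the libraries beside these sums. The nuclear-retained RNA Malat1 was at 6343, 2802, 3825 and 4384 CPM in the wild-type and at 12070, 3413, 6981 and 10442 CPM in the knockout libraries, and the 3 nuclear-retained RNAs of the list, of which Meg3 was at 0 everywhere, summed to 2871 to 6569 and 3582 to 12431 CPM. The sum of Cd74 and the MHC class II genes given above was higher than in all wild-type libraries in 3 of 4 knockout libraries, while the sum of the 9 other monocyte, macrophage and dendritic cell markers was lower than in all wild-type libraries in 3 of 4. Genes that respond to tissue digestion summed to 8125 to 11078 CPM in wild type and 6948 to 9640 CPM in knockout. Hspa8 was the most abundant of them, at 3941 to 4547 and 4035 to 4661 CPM. Single genes of this list differed in direction. Ier2 was lower in every knockout library, at 835.3 to 935.8 CPM in wild type and 376.6 to 724.3 CPM in knockout. Dnaja1 was at 304 to 513.2 CPM in wild type and 354.8 to 708.7 CPM in knockout. The part of each of these measures in the members' values was not tested.

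The estimates also varied with the base composition of transcripts. Among 2951 abundant genes, those in the decile of lowest GC content had a median log2 fold change of 0.41 (79.7% higher in knockout), and those in the highest decile −0.36 (28.8% higher). Members tended to the low side: their median GC content was 45.0% against 49.4% for all tested genes. Bclaf1 (39.6% GC) and Clk1 (40.9%) lay in the lowest decile of abundant genes, Srsf2 (49.97%) near the middle and Clk3 (58.8%) near the top. With an offset for GC content in each library, the log2 fold change was 1.44 for Bclaf1, 0.88 for Clk1, 0.49 for Tra2b, 1.05 for Hnrnpdl and 1.29 for Srsf2. The median was 0.27 for SR and Clk genes and 0.08 for hnRNPs with that offset.

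**Figure D5:**
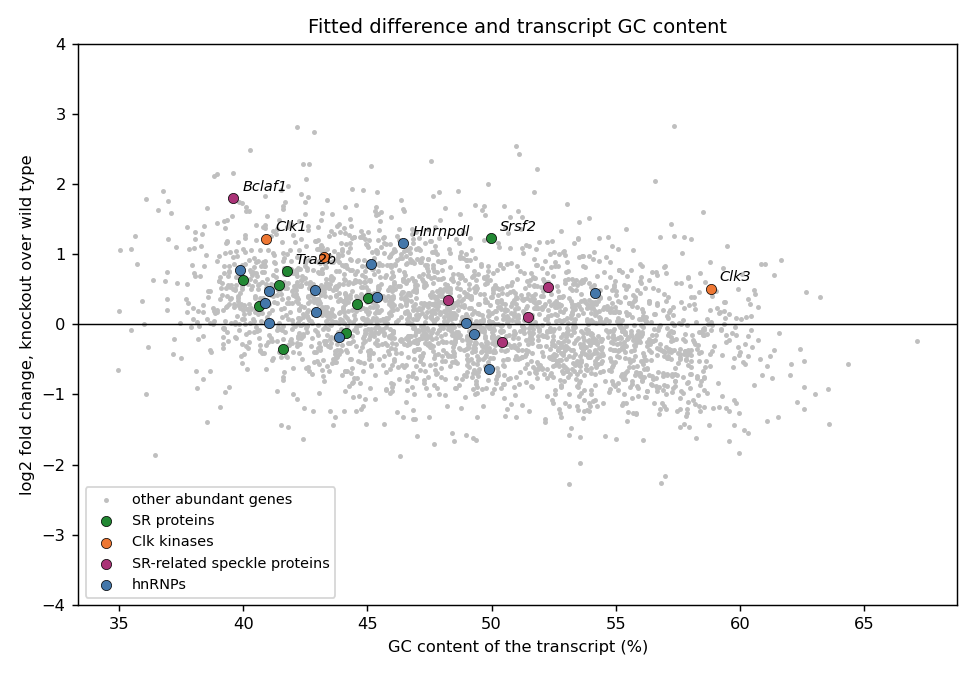
Log2 fold change of knockout over wild type (y axis) against the GC content of the transcript in percent (x axis) for 2951 abundant genes (grey), with the 31 members among them coloured by family. The grey points slope down from left to right, and Srsf2 and Clk3 lie above most genes of like GC content.

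Annotated starts were read from RefSeq promoters (GRCm38.p6, 250 bases before to 50 after the start), which held 52 promoters of 39 members. The promoters of Bclaf1 and Hnrnpdl lie inside the gene positions given above, so they do not mark the outermost start of these genes. Entries for Clk1, Hnrnpll and Hnrnpul2 were not used here. Promoters are shown for Bclaf1, Tra2b and Hnrnpdl, the members with an entry whose genotypes did not overlap, with capitals marking GGCGGG or its reverse complement CCCGCC, the core of a GC box.
Bclaf1 (chr10:20312219-20312518, plus strand): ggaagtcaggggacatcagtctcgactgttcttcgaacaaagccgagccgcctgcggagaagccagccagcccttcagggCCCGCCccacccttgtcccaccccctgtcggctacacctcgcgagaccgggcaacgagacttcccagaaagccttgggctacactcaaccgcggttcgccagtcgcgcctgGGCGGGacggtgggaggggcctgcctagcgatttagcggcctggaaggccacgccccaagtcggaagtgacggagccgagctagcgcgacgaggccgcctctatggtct
Tra2b (chr16:22265956-22266255, minus strand): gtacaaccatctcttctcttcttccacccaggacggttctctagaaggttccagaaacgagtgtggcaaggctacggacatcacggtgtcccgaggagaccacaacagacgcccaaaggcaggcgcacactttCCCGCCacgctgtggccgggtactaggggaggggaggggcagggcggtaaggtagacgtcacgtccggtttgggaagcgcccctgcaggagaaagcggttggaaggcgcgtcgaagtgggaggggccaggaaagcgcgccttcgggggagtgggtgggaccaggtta
Hnrnpdl (chr5:100039173-100039472, minus strand): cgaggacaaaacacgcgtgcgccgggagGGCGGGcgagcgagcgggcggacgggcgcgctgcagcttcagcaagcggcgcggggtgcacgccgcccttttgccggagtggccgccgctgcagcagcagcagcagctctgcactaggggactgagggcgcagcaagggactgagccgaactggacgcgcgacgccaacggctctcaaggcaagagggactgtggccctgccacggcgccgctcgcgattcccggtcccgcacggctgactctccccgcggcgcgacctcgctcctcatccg
On either strand, GGCGGG occurred in 46 of the 52 member promoters (88.5%), in 47.6% of the promoters of coding genes in the file and in 35.3% of all promoters in the table. CCAAT occurred in 48.1% of member promoters against 37.9% for coding genes, and more often in hnRNP promoters (63%) than in SR promoters (31.2%), with no test. These shares count promoters and not genes, with 27 promoters for 18 hnRNP genes and 16 for 13 SR genes. Some promoters of the same gene overlap. TATAAA occurred in 7.69% against 12.1%, and the NRF1 palindrome in 3.85% against 1.42%. The median GC content was 66.3% in member promoters and 57.3% in those of coding genes, and the part of composition in the motif counts was not tested. These are matches of letters and say nothing of binding.

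By the sign of their estimates, other splicing genes did not lean one way. In 7 lists of 103 genes that surround the members in the splicing pathway, 97 were tested, 47 with higher and 50 with lower estimates, around a median log2 fold change of −0.05. By edgeR's adjusted p, 0 of the 97 passed, and at an unadjusted p under 0.05 there were 4 on the higher and 2 on the lower side, against 1.87% and 1.97% of all tested genes. Every knockout library lay above every wild-type one for 2 of the 97, and below for 7. These patterns were seen in 1.52% and 4.62% of all tested genes. Lists near the members in function, other proteins with arginine and serine rich domains (11 of 18 higher, median 0.22) and other splicing regulators (13 of 21, median 0.23), had the highest medians. The core machinery lay near the median of all tested genes, −0.12: U2 recognition factors had a median of −0.08, Sm and U1 proteins −0.11, and tri-snRNP and catalytic proteins −0.12. SR protein kinases and transport factors were at −0.23 and NMD factors at −0.20.

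Within these lists, Rbm39, a U2AF-related splicing factor, was at 570.2, 642, 587 and 339 CPM in the wild-type and at 861, 1202, 659.7 and 959.8 CPM in the knockout libraries without overlap (log2 fold change 0.78 ± 0.26). Cdk12, a kinase of RNA polymerase II with an arginine and serine rich domain, was also without overlap, at 43.3, 32.5, 41.3 and 43.6 and 69.1, 88.6, 48.2 and 395 CPM (log2 fold change 1.90 ± 0.77). Mbnl1, a regulator of alternative exons, overlapped, at 1274, 3021, 2133 and 2221 and 3186, 6747, 4132 and 2892 CPM (log2 fold change 0.97 ± 0.30). Sfpq, a paraspeckle protein, overlapped as well, and its log2 fold change was 0.83 ± 0.37.

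On the lower side, Tnpo3, the importin that carries phosphorylated SR proteins into the nucleus, was at 71.4, 66.8, 88.6 and 79.5 CPM in the wild-type and at 8.80, 17.9, 61.4 and 2.40 CPM in the knockout libraries. Every knockout library was below every wild-type one, and its log2 fold change was −1.76 ± 1.23. U2af2, which binds the polypyrimidine tract, was likewise lower without overlap, at 34.9, 27.1, 29.2 and 17.7 and 3.41, 2.89, 2.63 and 6.01 CPM (log2 fold change −2.87 ± 1.70). Puf60, a U2AF-like factor, had a log2 fold change of −0.86 ± 0.39 and overlapped.

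The other genes named by the rule did not reach an unadjusted p under 0.05, except Smg6, the NMD endonuclease. Smg6 was scarce, at 6.64, 33.9, 10.3 and 0.662 CPM in the wild-type and at 0.211, 0.0556, 0.358 and 0 CPM in the knockout libraries (log2 fold change −6.31 ± 2.52). Log2 fold changes were 0.83 ± 0.58 for Prpf4b, an SR protein kinase, 1.03 ± 0.49 for Luc7l3 and 0.49 ± 0.44 for Snrpd2, both U1 or Sm proteins. They were 0.58 ± 0.41 for Eftud2 and 0.81 ± 0.78 for Prpf6, of the tri-snRNP, and 0.67 ± 0.40 for Upf1, the NMD helicase.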

How the data were processed

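RNA was measured in 4 wild-type and 4 Slc7a5 knockout libraries prepared with a low-input kit, per the labels' protocols. The deposited table holds raw counts for each gene symbol, which the authors did not normalize. HISAT2 2.1.0, featureCounts, edgeR 3.28.1 and mm10 are named, per the submitters' processing notes, and the annotation, strand setting and duplicate handling are not given in the sources used here. Low-input amplification can lose scarce transcripts, so the p-values and SDs measure the spread between libraries, which may be technical.

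In R 4.3.3, genes were filtered (filterByExpr, minimum count 10, minimum total 15), scaled by TMM and compared by the quasi-likelihood test of edgeR 4.0.16 with robust dispersion and genotype alone in the model, with Benjamini-Hochberg adjustment over 8489 genes at a threshold of 0.05. A positive log2 fold change is higher in knockout. Its SE was obtained by dividing it by the square root of the F statistic, and log2 CPM used a prior count of 2. Total counts were 21873678 to 36436923 in wild type and 18837650 to 25853856 in knockout. Alternatives were no filter, at least 50 counts in 4 libraries, 3 other scalings, DESeq2 1.42.0, limma 3.58.1 voom with quality weights, a replicate block, a GC offset (loess, span 0.75, on genes above a mean log2 CPM of 5), both together, each library left out, and, added after the data were seen, the ratio without Srsf2, the kinase sum without Clk1, the SR-related sum without Bclaf1, the monocyte list in separate groups and family medians without knockout replicate 4. The scripts were tested on simulated data. GC content, lengths, exons and shared 50-base windows came from GENCODE M21 transcripts of GRCm38, and GC content was known for 8200 tested genes (96.6%).

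The members and lists were chosen with earlier results of these data known. Values in every library were given for 27 members: the Clk kinases, the SR-related proteins, the most abundant 4 SR proteins and hnRNPs, the 3 highest and 3 lowest estimates of each, and members without overlap. The other 15 were given by range or fold change. Of other genes, Slc7a5, Malat1 and up to 2 genes with the smallest p per pathway list were named.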

Additional observations from a re-analysis of the deposited data

Results flagged for a closer look

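A library was set apart where its gap to the nearest of the other 3 of its group, over the range of all 4, exceeded the critical value of Dixon's test, which chance gives in about 1 of 20 groups. Of 88 values checked (groups of 4 libraries for members and sums), 8 did so. Knockout replicate 4 gave 3 of them. In it, Tra2b was at 982.1 CPM where the other knockout libraries were at 486.2 to 497.1, Tra2a was at 119.9 CPM against 40.45 to 49.91, and Srsf9 at 138.4 CPM against 7.501 to 24.43. The other knockout values were high ones in scarce genes: Hnrnpul1 was at 113.7 CPM in replicate 1 against 0 to 8.89, and Hnrnpul2 at 9.241 CPM in replicate 3 against 0 to 0.9446. In wild type, Tra2a was low in replicate 1 at 47.86 CPM against 75.36 to 78.79, Hnrnph2 was high in replicate 4 at 405.4 CPM against 262.1 to 278, and Hnrnph3 was high in replicate 3 at 15.36 CPM against 5.739 to 7.261.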

How the results depend on the processing

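In edgeR, 0 genes passed under every filter, scaling, block, GC offset and left-out library tried, while DESeq2 called 101 genes with 3 members and voom with quality weights 4 genes with 0 members. The median log2 fold change of the SR and Clk genes was 0.24 with the GC offset and replicate block, 0.11 with voom and 0.19 to 0.61 with 1 library left out, lowest without knockout replicate 4. The hnRNP median, 0.24, was −0.03 with the GC offset and replicate block, and the difference of the medians, 0.29, was −0.05 without knockout replicate 4 and −0.10 with voom. The log2 ratio of sums, 0.62, became 0.32 without Srsf2 and ran from 0.52 to 0.77 with 1 library left out. The replicate numbers did not pair the libraries (correlations of same-numbered deviations −0.02, 0.02, 0.02 and 0.05, and not every library correlated best with its own number). The replicate block gave 0 genes, medians of 0.30 and 0.12 and a difference of 0.19, beside a shift of the median of all genes from −0.12 to −0.68. Members with a higher estimate numbered 23 to 30 of 41 over all settings, where 31.1% to 46.5% of all tested genes had a higher estimate. Hnrnpd, −1.54, was at −5.46 with the block, and Hnrnpul2, −2.72, at −6.84. Among the 27 members given in every library, signs turned for 7, and the cause was not tested. The signs of the other tested members were not followed one by one. Hnrnpf was at −0.00 with the stricter filter, −0.07 with upper quartile scaling, −0.10 with library size only, −0.03 with the block with and without the GC offset, −0.11 with voom, and −0.21 to 0.20 with 1 library left out. Srrm1 was at −0.01 with library size only, −0.11 with the block and −0.14 to 0.41 with 1 library left out. Clk2 was at −1.67 with the block, −1.41 with block and GC offset, −2.28 with voom and −0.19 to 2.12 with 1 left out, and Clk3 at −0.18 with voom. Hnrnpk was at −0.06 with the GC offset, −0.02 with block added and −0.01 to 0.36 with 1 left out. Hnrnpu was at −0.04, −0.33 and −0.01 to 0.64 in the same settings, and Thrap3 at 0.08 with voom and −0.54 to 0.15 with 1 left out.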
